A study of Homo sapiens with 24 samples.

Results

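The genes described here are the DNA replication and mitosis genes of LREX' prostate cancer cells, 55 genes of which 27 act in or around S phase and 28 in mitosis. They were taken by name from the platform annotation. All 55 had a probe, 80 probes in all, and 54 genes (26 of S phase and 28 of mitosis) passed a filter on dim probes, out of 12895 genes tested across the array. The gene that did not pass was CCNE2, a cyclin of the G1 to S transition, whose 1 probe was detected on 2 of the 24 arrays.

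LREX' is a human line derived from prostate tumours that regrew in mice under the androgen receptor antagonist enzalutamide and that express the glucocorticoid receptor. All cultures were kept in charcoal-stripped, steroid-depleted medium and harvested after 8 h of treatment, 3 cultures described as biological triplicates per group, with 1 Illumina expression beadchip array each. The treated groups received dihydrotestosterone (DHT, an androgen) at 1 nM, dexamethasone (Dex, a synthetic glucocorticoid) at 10 or 100 nM, enzalutamide alone at 10 µM, enzalutamide with DHT, enzalutamide with Dex 10 nM or enzalutamide with Dex 100 nM, and the control group received the DMSO vehicle. The labels give no enzalutamide dose for the combinations. Every group comes from 1 cell line, and no label says how many cells were in each phase of the cycle.

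Before S phase the origin recognition complex, CDC6 and CDT1 load the MCM helicase onto replication origins, and CDC45, the GINS complex and MCM10 then help to turn the loaded helicase into a working one. In many mammalian cell types E2F factors drive S-phase genes, and genes of the G2 phase and mitosis are held down in early cycle phases through a short promoter element called the cell cycle gene homology region (CHR). Cyclin B with CDK1 starts mitosis, the Polo and Aurora kinases and kinesin motors build the spindle, and the anaphase-promoting complex ends mitosis by marking cyclin B and securin for destruction. In androgen-dependent prostate cancer cells, androgen is known to support growth, while glucocorticoids slow growth in many cell types.

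The arrays were alike in quality. Median raw signal was 59.4 to 69.5, 19463 to 21017 of 47323 probes were detected per array, and values across genes correlated at 0.992 to 0.995 within groups. FOXA1, HOXB13, KRT8, KRT18, TMPRSS2, EPCAM and CDH1, markers of luminal prostate epithelium, were detected on all 24 arrays, and KLK3 on 9, none of them vehicle arrays. Of markers of other cell types, KRT5, KRT14, SYP, PECAM1 and CD3E were detected on 0 arrays, while COL1A1, VWF and CD68 were detected on all 24. The steroids acted: FKBP5, a chaperone induced by both receptors, was higher by 1.45 with DHT and by 2.08 with Dex 100 nM on the log2 scale, and lower by 1.41 with enzalutamide plus DHT than with DHT (log2 change -1.41). Among the replication and mitosis genes other than FZR1, which was near background, the change of greatest size in the 12 comparisons was -0.44, in ASF1A with enzalutamide against vehicle.

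Levels below are log2 intensities after background correction and quantile normalisation, and a change is the difference of 2 group means on that scale. A gene was called where its limma p, adjusted by Benjamini-Hochberg over all 12895 genes in that comparison, was under 0.05. Values after ± are standard errors with 3 arrays per group unless given as SD.

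Over 12 pairwise comparisons of 54 genes at 8 h, 648 tests, there were 15 calls (2.31%), beside 1.74% over all genes. Of the calls, on 11 genes, 13 were lower and 2 higher. The 3 S-phase genes called were MCM7, ASF1A and CCNE1, and the 8 mitosis genes were AURKA, CDK1, CENPA, DLGAP5, FZR1, KIF20A, KIF2C and PLK1. In all 15 calls the arrays of both groups did not overlap. A call with 3 arrays per group makes this likely, so it adds no support to the call. In the comparisons with calls, 13.9% to 21.3% of all genes did not overlap. Apart from FZR1, the called changes were 1.16-fold to 1.35-fold. Because RNA was measured in whole cultures, fewer cells in S phase or mitosis and less of an RNA per cell cannot be told apart.

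With DHT against vehicle, 1 of 54 genes was called, MCM7, beside 4.26% of all genes. Dex 10 nM against vehicle also gave 1 call, ASF1A, beside 2.19% of all genes, while Dex 100 nM against vehicle gave 5 (9.26% of the 54), beside 5.06%. Those 5 were ASF1A, AURKA, CENPA and DLGAP5, all lower, and CDK1, higher. Enzalutamide against vehicle gave 1 call, ASF1A, of only 2 genes called in the whole array (0.0155%). Enzalutamide plus DHT against DHT gave 1, KIF20A, beside 3.72%.

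In cultures that all had enzalutamide, Dex 10 nM gave 1 call, FZR1, beside 1.08% of all genes. Dex 100 nM there gave 5 calls (9.26% of the 54), beside 3.4%, and all of them, CCNE1, CENPA, FZR1, KIF2C and PLK1, were lower. Enzalutamide plus DHT against enzalutamide gave 0 calls in limma, beside 0% of all genes, with 1 of the 54 (1.85%) at an unadjusted p under 0.05, beside 3.32%. Enzalutamide plus Dex against the same dose of Dex gave 0 calls at either dose, beside 0% of all genes each time. At an unadjusted p under 0.05 there were 8 of the 54 (14.8%) at 10 nM, beside 6.98% of all genes. At 100 nM there were 3 (5.56%), beside 8.14%. Dex 100 nM against Dex 10 nM gave 0 calls, beside 0.651% of all genes, or 0.512% where both had enzalutamide. At an unadjusted p under 0.05 there were 5 and 4 of the 54 (9.26% and 7.41%), beside 8.03% and 6.35%.

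**Figure D1:**
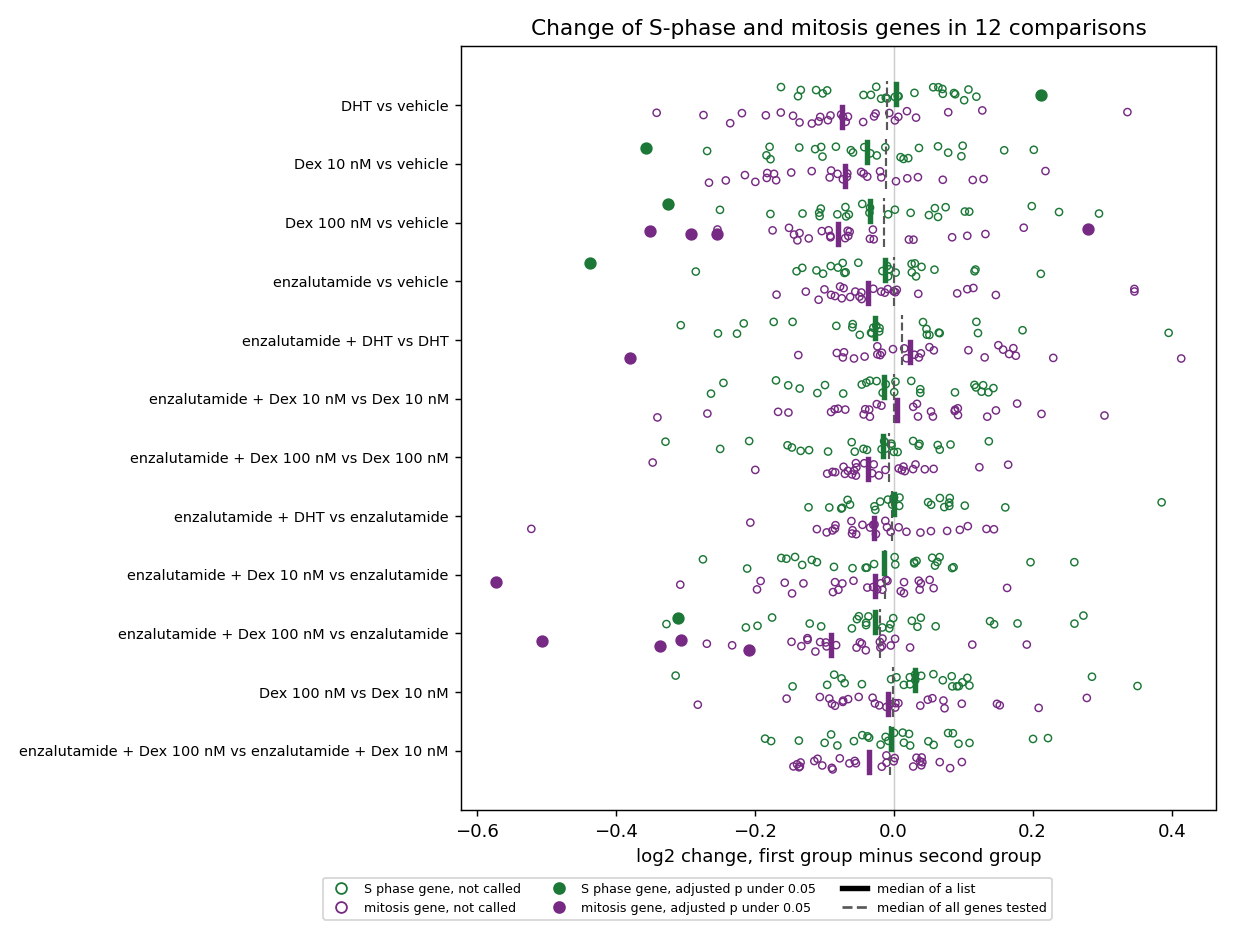
Log2 change (horizontal axis, first-named group minus second) of each of 26 S-phase genes (green) and 28 mitosis genes (purple) in 12 comparisons (vertical axis). Filled points are called at an adjusted p under 0.05, thick bars are list medians and dashed lines the median of all 12895 genes. The purple bar lies furthest left of the dashed line in the 3 steroid comparisons with vehicle and, at -0.090, in enzalutamide plus Dex 100 nM against enzalutamide.

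The heat map of the 54 genes by role shows the same calls as isolated cells, with no role in which most genes were called.

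**Figure D2:**
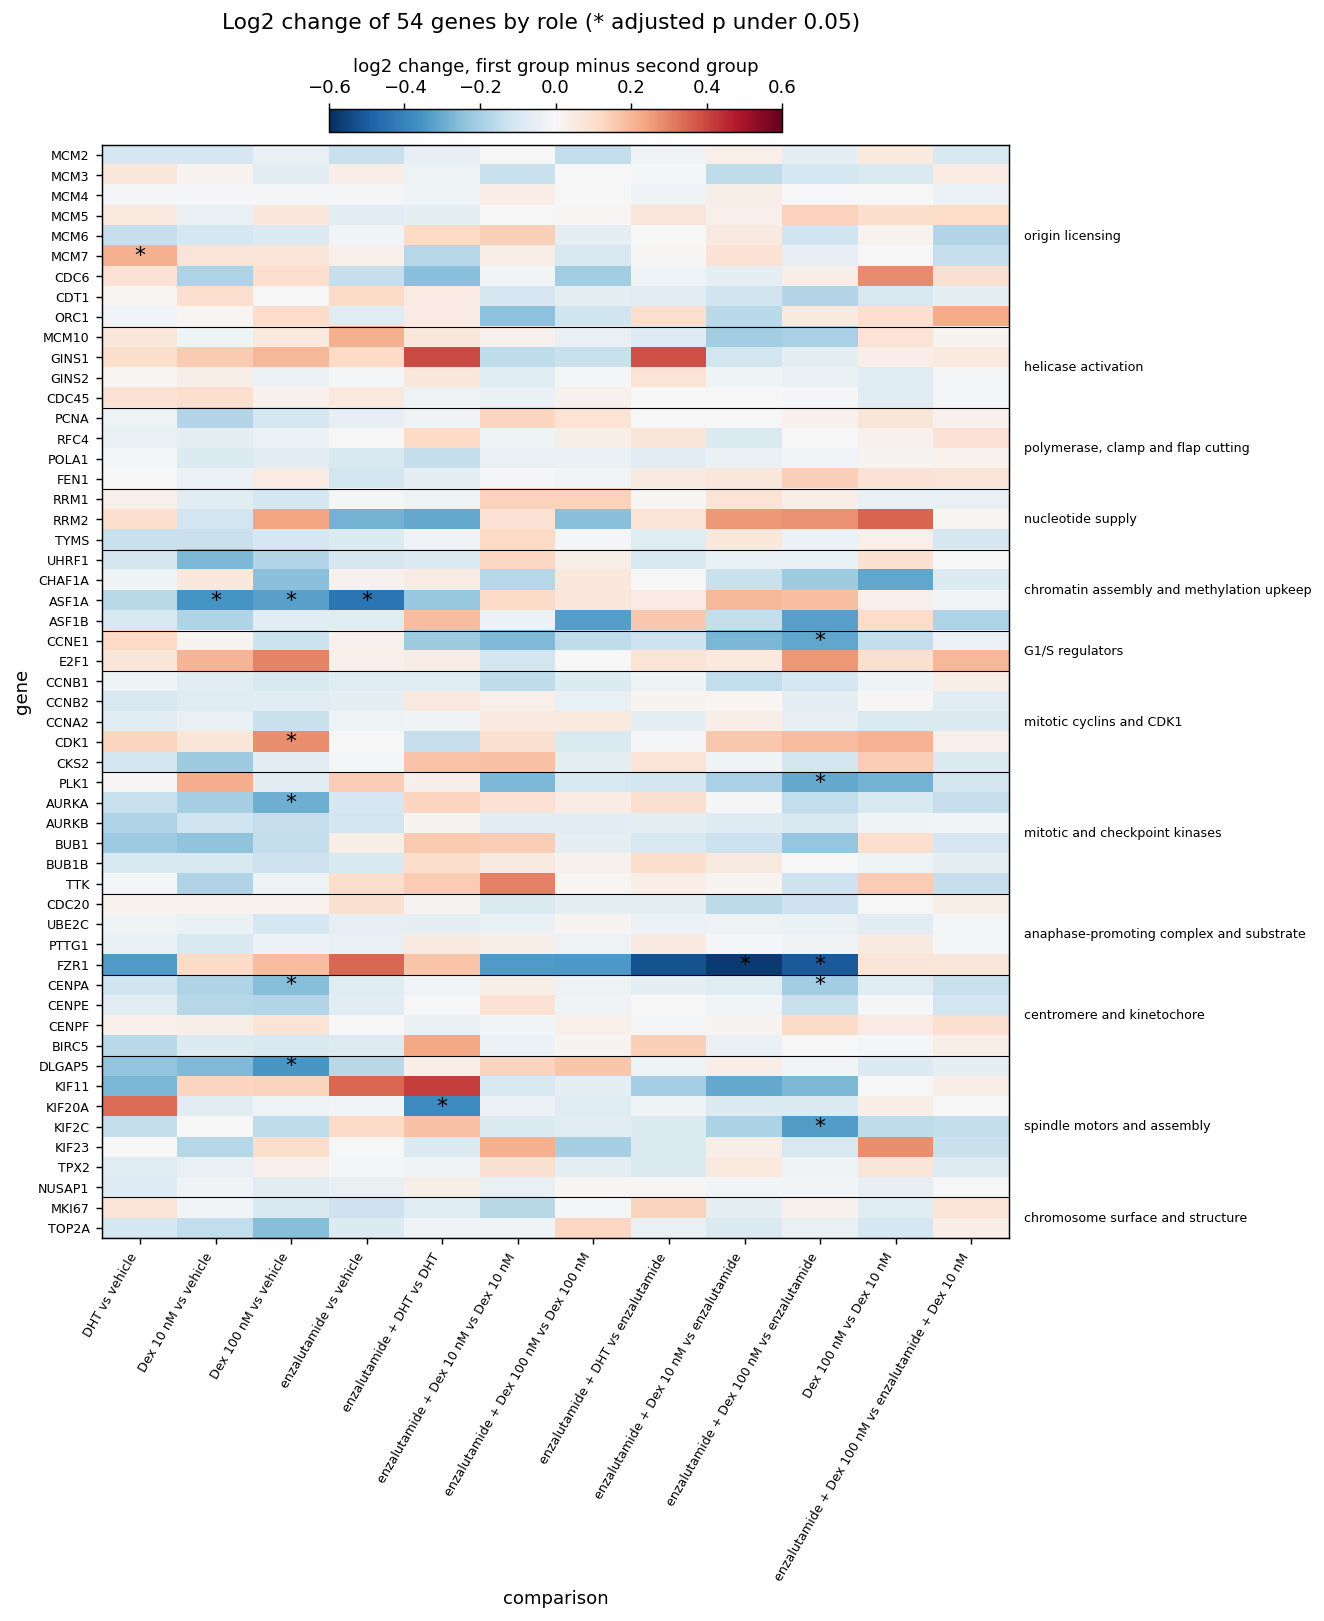
Log2 change (colour, first-named group minus second, scale from -0.6 to 0.6) of 54 genes (rows, grouped by role) in 12 comparisons (columns). Stars mark adjusted p under 0.05. ASF1A has 3 stars, CENPA and FZR1 have 2 each, and the other 8 starred genes have 1 each.

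Promoter sequences from RefSeq (GRCh38.p14), the 250 bases before and 50 after each start, were found by symbol for 47 of the 55 genes, 24 of S phase and 23 of mitosis. AURKA was among those with no entry. The CHR, searched as TTTGAA on both strands, was in 15 of 23 mitosis promoters (65.2%) and 2 of 24 S-phase promoters (8.33%), against 18.2% of 27305 genes. E2F site letters (TTTCCCGC, TTTCGCGC, TTTGCCGC or TTTGGCGC, both strands) were in 13 of 24 S-phase promoters (54.2%) and 3 of 23 mitosis promoters (13%), against 3.99% of all genes. CCAAT, on both strands, was in 18 of 24 S-phase and 19 of 23 mitosis promoters (75% and 82.6%), against 39.7%. None of these letter runs contains another. A match is a run of letters and not a measured site.

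Of the 8 mitosis genes called, CDK1, CENPA, DLGAP5, FZR1 and PLK1 had the CHR letters in their window, KIF20A and KIF2C did not, and AURKA had no entry. The 250 bases before the start are printed for 5 called genes, chosen after their values were seen, to set 4 mitosis promoters with CHR letters, of which CENPA and CDK1 also have E2F letters, beside an S-phase promoter with E2F letters. Capitals mark CHR, E2F and CCAAT letters on either strand.
CENPA (chr2:26785806-26786055, plus strand): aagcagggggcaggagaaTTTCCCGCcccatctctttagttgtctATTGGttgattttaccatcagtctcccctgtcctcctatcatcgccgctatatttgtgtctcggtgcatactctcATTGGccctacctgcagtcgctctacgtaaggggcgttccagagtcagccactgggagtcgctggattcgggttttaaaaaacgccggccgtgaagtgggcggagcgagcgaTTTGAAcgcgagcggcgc
DLGAP5 (chr14:55191586-55191835, minus strand): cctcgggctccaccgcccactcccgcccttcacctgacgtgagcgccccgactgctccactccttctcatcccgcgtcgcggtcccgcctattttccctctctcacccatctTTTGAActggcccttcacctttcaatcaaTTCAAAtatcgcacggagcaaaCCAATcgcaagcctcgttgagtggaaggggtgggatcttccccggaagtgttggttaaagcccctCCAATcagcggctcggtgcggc
PLK1 (chr16:23678639-23678888, plus strand): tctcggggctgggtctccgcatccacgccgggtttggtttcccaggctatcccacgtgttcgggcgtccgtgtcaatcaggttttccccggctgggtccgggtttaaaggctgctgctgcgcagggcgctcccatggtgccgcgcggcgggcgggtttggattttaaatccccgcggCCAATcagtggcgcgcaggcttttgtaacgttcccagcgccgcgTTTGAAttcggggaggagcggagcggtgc
CDK1, second of 2 starts (chr10:60778228-60778477, plus strand): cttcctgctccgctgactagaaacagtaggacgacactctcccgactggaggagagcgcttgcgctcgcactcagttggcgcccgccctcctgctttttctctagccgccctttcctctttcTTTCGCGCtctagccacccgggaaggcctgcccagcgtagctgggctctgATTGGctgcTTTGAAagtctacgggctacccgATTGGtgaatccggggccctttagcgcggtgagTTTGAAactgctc
MCM7, first of 3 starts (chr7:100101398-100101647, minus strand): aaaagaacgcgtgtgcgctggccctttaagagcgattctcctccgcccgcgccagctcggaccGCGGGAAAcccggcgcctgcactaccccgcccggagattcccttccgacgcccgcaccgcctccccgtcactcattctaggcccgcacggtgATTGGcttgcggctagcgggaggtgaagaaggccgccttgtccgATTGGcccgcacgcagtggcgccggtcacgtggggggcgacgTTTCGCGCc

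Among the origin licensing genes (ORC1, CDC6, CDT1 and MCM2 to MCM7), 1 call was made, MCM7 with DHT. MCM7, a subunit of the MCM helicase ring, had levels of 13.06, 13.02 and 13.01 in DHT cultures, against 12.85, 12.84 and 12.76 in vehicle cultures. All 3 DHT arrays lay above all 3 vehicle arrays, and MCM7 rose by 0.21 ± 0.06, or 1.16-fold (adjusted p = 0.0474). The other 5 ring subunits, MCM2, MCM3, MCM4, MCM5 and MCM6, differed by -0.14 to 0.06 and were not called. No single array could be spared, since without any one of the 3 DHT or 3 vehicle arrays the adjusted p was 0.0828 to 0.194. A second MCM7 probe, detected on all arrays, differed by 0.18, and one more, detected on 4 arrays, by -0.39, so that the mean of the 3 probes gave a change of 0.0007 (adjusted p = 0.998).

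With Dex 100 nM the 9 licensing genes lay between -0.08 and 0.11 and their median was 0.0019. In the helicase activation group, MCM10, CDC45, GINS1 and GINS2, 0 genes were called in limma in any comparison. GINS1, a subunit of the GINS complex, was near the detection limit, with its probe detected on 4 arrays. Its largest difference, 0.40 ± 0.24 in enzalutamide plus DHT against DHT, came with levels of 4.65, 6.02 and 4.82 in enzalutamide plus DHT, against 5.02, 4.65 and 4.62 in DHT, so that 1 array stood apart and the groups overlapped. The CDC45 group means were within 0.10 of each other over the 8 groups. MCM4 had the narrowest range of group means among the 54, within 0.06 of each other.

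The polymerase, clamp and flap-cutting genes (PCNA, the sliding clamp; RFC4, of the clamp loader; POLA1, of the priming polymerase; and FEN1, which trims flaps) also had 0 calls in any comparison. Their changes ran from -0.04 to 0.0018 with DHT and from -0.11 to 0.05 with Dex 100 nM. Of the nucleotide supply genes, RRM2, the regulated subunit of ribonucleotide reductase, had the widest group means, spread over 0.52. RRM2 levels were 7.66, 7.70 and 7.64 with Dex 100 nM, against 7.55, 6.96 and 7.43 with Dex 10 nM, a difference of 0.35 ± 0.14 that was not called. One Dex 10 nM array lay well below the other two, and the Dex 100 nM arrays were all higher. RRM1, the large subunit, and TYMS, which makes thymidylate, had group means within 0.18 and 0.15 of each other.

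The S-phase gene called in most comparisons, 3, was ASF1A, a chaperone that hands histones H3 and H4 to assembly factors. ASF1A levels were 9.01, 8.95 and 8.88 with Dex 10 nM, against 9.12, 9.34 and 9.45 with vehicle. With Dex 100 nM they were 8.97, 9.06 and 8.90, and with enzalutamide alone 8.87, 8.87 and 8.86. Every array of these 3 treatments lay below every vehicle array, and the vehicle arrays were spread widest (SD 0.17, n = 3).

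ASF1A fell by 0.36 ± 0.07 with Dex 10 nM (1.28-fold, adjusted p = 0.00835). It fell by 0.32 ± 0.07 with Dex 100 nM (adjusted p = 0.0085), and by 0.44 ± 0.07 with enzalutamide (1.35-fold, adjusted p = 0.0481). These 3 changes use the same vehicle arrays. With DHT it differed by -0.16 ± 0.07 and was not called (adjusted p = 0.32). Without vehicle replicate 3 the adjusted p was 0.0666 for Dex 10 nM and 0.062 for Dex 100 nM, and without the third replicate of the Dex group it was 0.0537 and 0.0529. For enzalutamide, leaving out any array other than vehicle replicate 1 gave an adjusted p of 0.148 to 0.325.

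**Figure D3:**
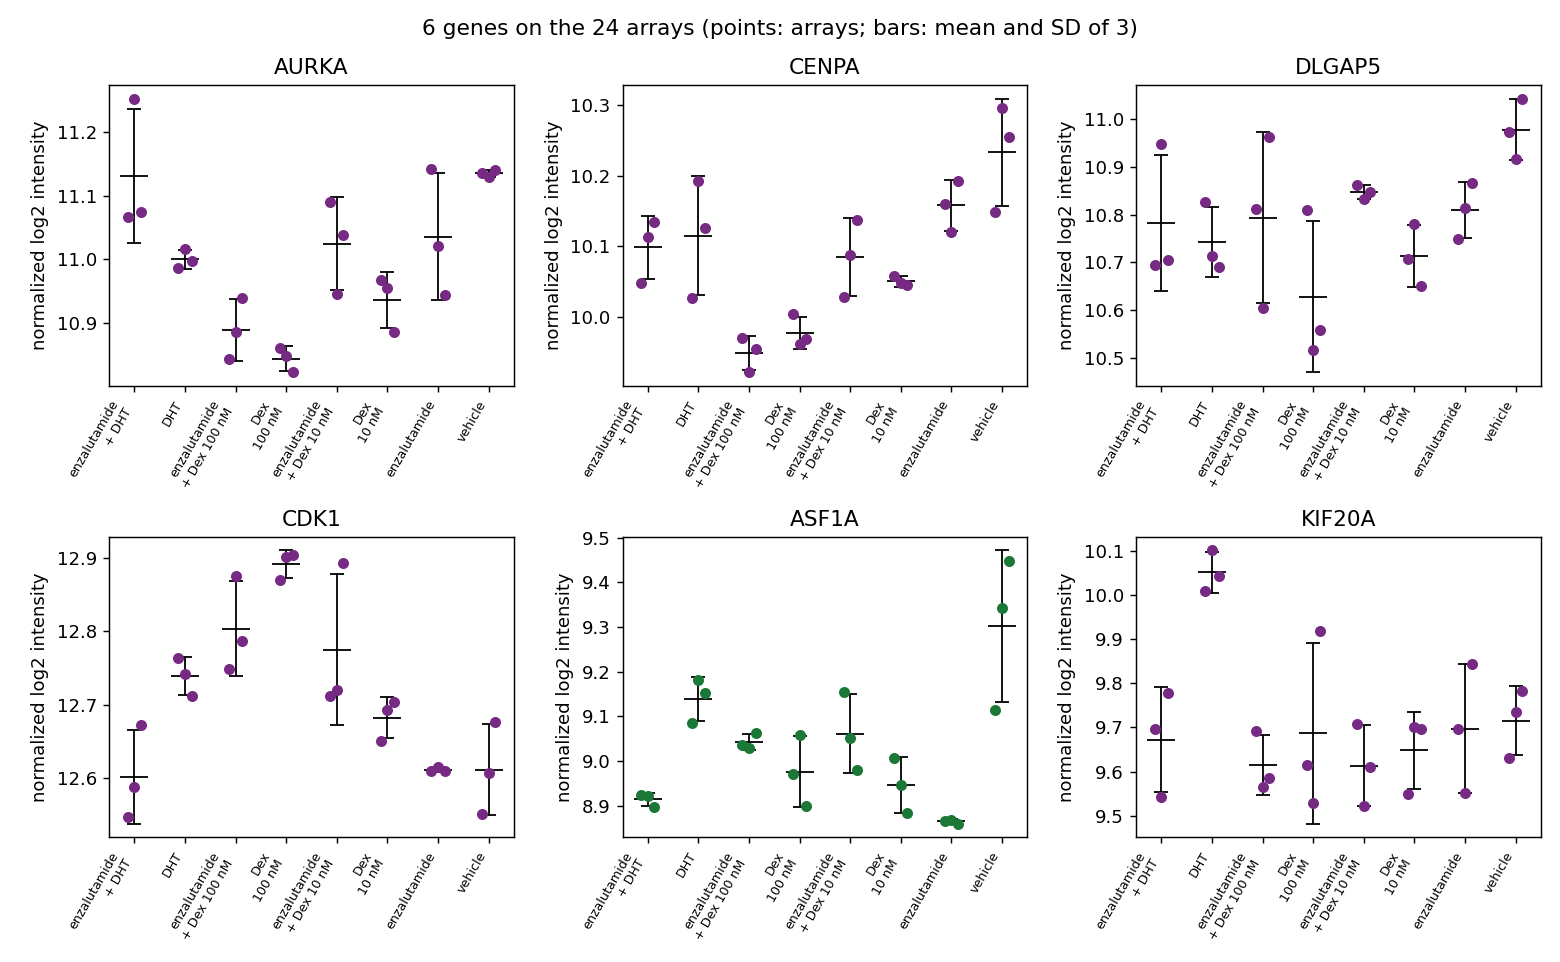
Normalised log2 intensity (vertical axes) of 6 called genes on all 24 arrays in 8 groups (horizontal axes); points are arrays, bars the mean and SD of 3. Each panel has its own scale. AURKA, CENPA and DLGAP5 are lower and CDK1 is higher in the Dex 100 nM cultures than in vehicle, all ASF1A treated groups have means below vehicle, and KIF20A stands at 10.01 to 10.10 in DHT cultures.

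In cultures given enzalutamide with Dex, mean ASF1A levels lay above those with either drug alone and below that with vehicle. It differed by 0.12 ± 0.07 between enzalutamide plus Dex 10 nM and Dex 10 nM, and by 0.07 ± 0.07 between enzalutamide plus Dex 100 nM and Dex 100 nM, neither called. The enzalutamide effect with Dex 10 nM minus that with vehicle was 0.55 ± 0.10 (adjusted p = 0.374), and with Dex 100 nM 0.50 ± 0.10 (adjusted p = 0.247). Over the 54 genes, 0 were called in the 3 differences of enzalutamide effects in limma, beside 1.81%, 0% and 0% of all genes with DHT, Dex 10 nM and Dex 100 nM. In these, 4, 9 and 4 of the 54 (7.41%, 16.7% and 7.41%) had an unadjusted p under 0.05, beside 9.21%, 7.78% and 7.61%. Without vehicle replicate 1, whose ASF1A level of 9.12 was the lowest of the 3, both ASF1A differences were called, at 0.65 (adjusted p = 0.0119) and 0.60 (adjusted p = 0.0349).

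ASF1B, the other form of this chaperone, CHAF1A, the large subunit of the chromatin assembly factor, and UHRF1, which reads half-methylated DNA behind the fork, were all below 0 with Dex 100 nM against vehicle but not called. The 4 genes of this role had a median change of -0.21 there. ASF1B levels were 8.72, 9.06 and 9.07 in enzalutamide plus Dex 100 nM, against 9.31, 9.42 and 9.10 in enzalutamide alone, a difference of -0.33 ± 0.11 without overlap that was not called (adjusted p = 0.125).

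Of the regulators of the G1 to S transition, CCNE1, which activates CDK2, was called once. CCNE1 levels were 8.12, 8.00 and 7.95 in enzalutamide plus Dex 100 nM, against 8.40, 8.34 and 8.26 in enzalutamide alone. The groups did not overlap, and CCNE1 fell by 0.31 ± 0.08 (1.24-fold, adjusted p = 0.0461). Leaving out any array other than the first enzalutamide plus Dex 100 nM replicate ended the call, with an adjusted p of 0.064 to 0.165. In the same contrast without enzalutamide it differed by -0.13 and was not called. E2F1, the factor that gives E2F sites their name, differed by 0.30 ± 0.21 with Dex 100 nM against vehicle (adjusted p = 0.556), with overlapping arrays.

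In the mitosis list, the start of mitosis is set by CDK1 with cyclins A and B. CDK1 levels were 12.87, 12.90 and 12.90 in Dex 100 nM cultures, against 12.55, 12.61 and 12.68 in vehicle cultures. All Dex 100 nM arrays were above all vehicle arrays, and CDK1 rose by 0.28 ± 0.06 (1.21-fold, adjusted p = 0.00483). No single array ended this call (adjusted p 0.00654 to 0.037). Its partners, the cyclins CCNA2, CCNB1 and CCNB2 and the CDK subunit CKS2, were all below 0, down to -0.14, and were not called.

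CDK1 in the same contrast under enzalutamide differed by 0.19 ± 0.06 and was not called (adjusted p = 0.0806), and with Dex 10 nM against vehicle by 0.07 ± 0.06 (adjusted p = 0.675). A second CDK1 probe differed by 0.14 with Dex 100 nM against vehicle, and the mean of both probes by 0.21, which was not called (adjusted p = 0.114). Under enzalutamide the second probe differed by 0.35 and was not called on its own (adjusted p = 0.112), while the mean of both probes rose by 0.27 (adjusted p = 0.0462).

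Among the mitotic and checkpoint kinases, AURKA gave a call that no left-out array ended. AURKA, which matures centrosomes and builds spindle poles, had levels of 10.86, 10.85 and 10.82 with Dex 100 nM, against 11.14, 11.13 and 11.14 with vehicle. The arrays within each group lay close together and the groups were far apart by comparison. AURKA fell by 0.29 ± 0.06 (1.22-fold, adjusted p = 0.00617). Leaving out each of the 6 arrays in turn gave an adjusted p of 0.0179 to 0.0298. With each probe tested apart, both AURKA probes were called, at -0.29 (adjusted p = 0.0164) and -0.32 (adjusted p = 0.00373), beside 2.91% of all probes.

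AURKA differed from vehicle by -0.20 ± 0.06 with Dex 10 nM (adjusted p = 0.116), and by -0.15 ± 0.06 between enzalutamide plus Dex 100 nM and enzalutamide (adjusted p = 0.268). These were not called. In both contrasts the arrays did not overlap, beside 20.2% and 17.5% of all genes. AURKB, BUB1, BUB1B, PLK1 and TTK were also below 0 with Dex 100 nM against vehicle, so that all 6 kinases were, with a median of -0.13, but only AURKA was called.

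PLK1, the Polo kinase, was called where enzalutamide was present. PLK1 levels were 8.18, 8.24 and 8.46 in enzalutamide plus Dex 100 nM, against 8.61, 8.53 and 8.67 in enzalutamide alone, with no overlap. PLK1 fell by 0.31 ± 0.08 (1.24-fold, adjusted p = 0.044), and leaving out any array other than the third enzalutamide plus Dex 100 nM replicate gave an adjusted p of 0.0558 to 0.192. With Dex 100 nM against vehicle its difference was -0.06 ± 0.08, and with Dex 10 nM against vehicle 0.22 ± 0.08, neither called. The enzalutamide effect on PLK1 with Dex 100 nM minus that with vehicle was -0.24 ± 0.12 (adjusted p = 0.652). TTK, a kinase of the spindle checkpoint, differed by 0.30 ± 0.08 between enzalutamide plus Dex 10 nM and Dex 10 nM, which was not called (adjusted p = 0.437).

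FZR1, the activator that keeps the anaphase-promoting complex working after mitosis, was dim, with its probe detected on 14 of the 24 arrays. FZR1 levels were 4.995, 4.70 and 5.02 in enzalutamide plus Dex 10 nM and 4.80, 5.16 and 4.95 in enzalutamide plus Dex 100 nM, against 5.22, 5.42 and 5.79 in enzalutamide alone. Both combinations lay below enzalutamide alone without overlap. The used probe was detected on 0 and 1 of 3 arrays there, against 3 of 3. FZR1 in enzalutamide plus DHT, at a mean of 4.95, also lay below without overlap but was not called (-0.52, limma adjusted p = 0.9998). There the used probe was detected on 1 of 3 arrays, and at least 1 of the FZR1 probes on 3 of 3. All these contrasts share the enzalutamide arrays, whose mean of 5.48 lay above the 5.13 of vehicle without overlap, also not called. A lower mean of the used FZR1 probe than in enzalutamide alone was thus seen with DHT as well as with Dex. A second FZR1 probe differed by -0.22 with DHT there. Whether the FZR1 change is particular to Dex was not tested. With the detection limit taken into account, mean FZR1 was at least 1.36-fold lower in enzalutamide plus Dex 10 nM, where the used probe was not well above background. In enzalutamide plus Dex 100 nM, where 1 of 3 arrays detected it, mean FZR1 was at least 1.32-fold lower by the same bound. These bounds are on group means and leave out the spread between arrays. The limma adjusted p values, 0.0362 and 0.0371, belong to the changes without the bound. Leaving out enzalutamide replicate 2 or 3 gave an adjusted p of 0.0827 and 0.228 for the 10 nM contrast and 0.0766 and 0.223 for the 100 nM contrast. Without enzalutamide plus Dex 10 nM replicate 1 or 2 it was 0.0656 and 0.191, and without enzalutamide plus Dex 100 nM replicate 1 or 3 it was 0.17 and 0.0969. A second FZR1 probe, detected on 11 arrays, differed by -0.30 at 10 nM (adjusted p = 0.858) and by -0.38 at 100 nM (adjusted p = 0.67). The mean of both probes lost both calls, at -0.44 in each contrast (adjusted p = 0.198 and 0.106).

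Without enzalutamide, FZR1 differed by 0.19 between Dex 100 nM and vehicle, which was not called. With DHT, where its probe was detected on 0 of 3 arrays, against 3 of 3 with vehicle, the used probe was not well above background and not called (adjusted p = 0.22). CDC20, the activator of this complex in mitosis, UBE2C, a ubiquitin-conjugating enzyme that works with it, and PTTG1, the securin it marks for destruction, were called in 0 comparisons. With Dex 100 nM against vehicle these 4 genes ran from -0.10 to 0.19.

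CENPA, the histone H3 variant that marks centromeres, was the one gene called both with Dex 100 nM against vehicle and with enzalutamide plus Dex 100 nM against enzalutamide, contrasts that share no arrays. CENPA levels were 10.00, 9.96 and 9.97 with Dex 100 nM, against 10.15, 10.30 and 10.25 with vehicle. Under enzalutamide they were 9.97, 9.92 and 9.96 with Dex 100 nM, against 10.16, 10.12 and 10.19 without it. In both contrasts all 3 arrays with Dex lay below all 3 without.

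CENPA fell by 0.25 ± 0.06 without enzalutamide (1.19-fold, adjusted p = 0.00732) and by 0.21 ± 0.06 with it (1.16-fold, adjusted p = 0.0407). The call without enzalutamide was lost without vehicle replicate 2 (adjusted p = 0.0508), and the one with enzalutamide without any one of its 6 arrays (0.0687 to 0.153). A second CENPA probe, detected on all arrays, differed by -0.21 without enzalutamide (adjusted p = 0.413) and by -0.14 with it (adjusted p = 0.725). The mean of both probes lost both calls, at -0.23 (adjusted p = 0.069) and -0.17 (adjusted p = 0.259). At 10 nM Dex the difference from vehicle was -0.18 ± 0.06, which was not called (adjusted p = 0.104). CENPE, a kinetochore motor, CENPF, a kinetochore protein, and BIRC5 (survivin), of the chromosomal passenger complex, had 0 calls.

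Of the spindle genes, 3 were called, each in 1 comparison. DLGAP5, which bundles spindle microtubules, had levels of 10.81, 10.52 and 10.56 with Dex 100 nM, against 10.97, 10.92 and 11.04 with vehicle. The first Dex 100 nM array was higher than the other two but still below the vehicle arrays. DLGAP5 fell by 0.35 ± 0.09 (1.27-fold, adjusted p = 0.0273). Without Dex 100 nM replicate 2 or 3 the adjusted p was 0.137 and 0.105, and without vehicle replicate 1 or 3 it was 0.0754 and 0.113. A second DLGAP5 probe, also detected on all arrays, differed by -0.01, and the mean of both by -0.18 (adjusted p = 0.214).

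KIF2C, a kinesin that takes microtubules apart at centromeres, had levels of 8.92, 8.92 and 8.99 in enzalutamide plus Dex 100 nM, against 9.27, 9.18 and 9.39 in enzalutamide alone. It fell by 0.34 ± 0.08 with no overlap (1.26-fold, adjusted p = 0.0236). Without enzalutamide replicate 1 or 3 the adjusted p was 0.0618 and 0.133, and without the first or second enzalutamide plus Dex 100 nM replicate 0.081 and 0.0826. All 7 spindle genes were below 0 in this contrast, with a median of -0.083, and only KIF2C was called.

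KIF20A, a kinesin of the central spindle and of cell division, was called in enzalutamide plus DHT against DHT. KIF20A levels were 9.70, 9.54 and 9.78 in enzalutamide plus DHT, against 10.01, 10.10 and 10.04 in DHT. Vehicle arrays, at 9.63, 9.73 and 9.78, were also below all DHT arrays. KIF20A fell by 0.38 ± 0.10 when enzalutamide was added to DHT (1.30-fold, adjusted p = 0.0267), and leaving out any array other than the third enzalutamide plus DHT replicate gave an adjusted p of 0.0586 to 0.153. Between DHT and vehicle it differed by 0.34 ± 0.10, just outside the threshold (adjusted p = 0.0519). The enzalutamide effect with DHT minus that with vehicle was -0.36 ± 0.13 (adjusted p = 0.304).

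KIF11, the motor that pushes spindle poles apart, had the second widest group means, spread over 0.62, but no call. KIF11 levels were 8.68, 8.77 and 8.98 in enzalutamide plus DHT, against 7.72, 8.66 and 8.82 in DHT. The first DHT array lay well below the other 5, the difference was 0.41 ± 0.20 (adjusted p = 0.407), and the 2 KIF11 probes differed there by 0.71. KIF23, TPX2 and NUSAP1 had 0 calls, and the NUSAP1 group means were within 0.08 of each other.

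MKI67, which coats mitotic chromosomes and is a common marker of proliferating cells, was called in 0 comparisons. With Dex 100 nM against vehicle it differed by -0.09. TOP2A, which untangles sister DNA, had levels of 11.26, 11.22 and 11.29 with Dex 100 nM, against 11.51, 11.51 and 11.51 with vehicle. Those groups did not overlap, and its difference of -0.25 ± 0.07 was just outside the threshold (adjusted p = 0.0527).

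As a list, the mitosis genes had small negative medians against vehicle. The median change over 28 genes was -0.074 with DHT, -0.07 with Dex 10 nM and -0.08 with Dex 100 nM, against -0.0096, -0.011 and -0.014 over all genes. These 3 comparisons use the same vehicle arrays. In each, 21 of 28 mitosis genes (75%) were below 0, where 52.7%, 53.1% and 53.8% of all genes were. Groups did not overlap, with the treated arrays lower, for 9, 8 and 6 of the 28, beside 9.69%, 10.9% and 11.6% of all genes. The S-phase medians were 0.0039, -0.038 and -0.034, with 12, 16 and 15 of 26 genes below 0.

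Under enzalutamide, with other arrays, the mitosis median for Dex 100 nM was -0.09, against -0.019 over all genes, and 24 of 28 (85.7%) were below 0, where 55.6% of all genes were. Treated arrays were lower without overlap for 7 of 28, beside 9.76% of all genes. In the 2 Dex 100 nM contrasts, which share no arrays, 19 of 28 mitosis genes were lower in both, where 21 and 24 were lower in each, and 33.9% of all genes were lower in both. The sizes did not follow each other: across the 28 genes, which share arrays within each contrast, Pearson's r was 0.03 and Spearman's rho 0.10. The other steroid contrasts under enzalutamide had mitosis medians nearer those of all genes, -0.026 with Dex 10 nM, against -0.013 over all genes, and -0.028 with DHT, against -0.0022, with 19 of 28 below 0 in each. For Dex 10 nM, 14 of 28 were lower both without and with enzalutamide (50%), beside 30.6% of all genes, with Pearson's r of -0.45 and Spearman's rho of -0.30. For DHT it was 13 of 28 (46.4%), beside 27.1%, with r of 0.41 and rho of 0.24. With so many of the 28 genes lower in each contrast, many must be lower in both. The counts lower in both therefore cannot show whether the same genes fell with and without enzalutamide. For Dex 100 nM, leaving out each array in turn, the mitosis median ran from -0.10 to -0.049 without enzalutamide and from -0.11 to -0.045 with it.

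By array, the mitosis median of deviations from each gene's mean was -0.052, -0.057 and 0.016 with Dex 100 nM, against 0.041, 0.033 and 0.10 with vehicle. It was -0.015, -0.095 and -0.022 in enzalutamide plus Dex 100 nM, against 0.04, 0.014 and 0.08 in enzalutamide alone. Neither pair of groups overlapped. The sample titles carry numbers in 3 runs of the same treatment order, and in all 3 runs the array of each Dex 100 nM group was below that of the group it is set against. Being below vehicle was not particular to Dex 100 nM. The vehicle array had the highest mitosis median of the 8 in each run, above enzalutamide alone and every other treatment. Over the 8 arrays of a run the medians were -0.02, -0.011 and 0.021, and these values were not adjusted for the run.

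**Figure D4:**
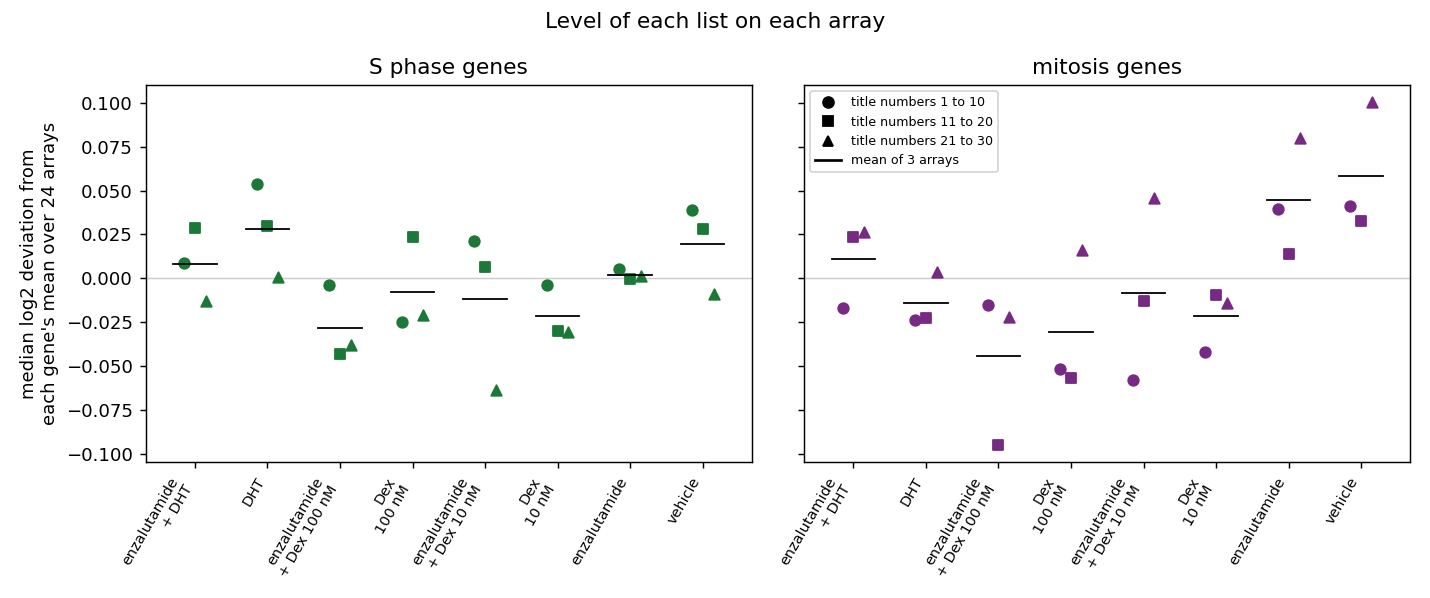
Median, over 26 S-phase genes (left) and 28 mitosis genes (right), of each array's log2 deviation from the gene's mean over 24 arrays (vertical axis), by group (horizontal axis). Shapes are the 3 runs of title numbers and lines the means of 3 arrays. In the right panel vehicle arrays (0.033 to 0.10) and enzalutamide arrays (0.014 to 0.08) lie above the Dex 100 nM arrays of the same run, with and without enzalutamide. The vehicle array is the highest of each run there.

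The remaining contrasts had mitosis medians nearer that of all genes than the steroid contrasts with vehicle did. The largest difference from all genes among them was -0.038, in enzalutamide against vehicle, where 18 of 28 mitosis genes were below 0. Enzalutamide against vehicle had medians of -0.013 for S phase and -0.038 for mitosis, against 0.0005 over all genes. Enzalutamide plus DHT against DHT had -0.027 and 0.024, against 0.012. Dex 100 nM against Dex 10 nM had 0.031 and -0.0077, against -0.0007. For enzalutamide plus Dex 100 nM, the mitosis median was -0.037 against Dex 100 nM, beside -0.0066 over all genes. Set against enzalutamide plus Dex 10 nM it was -0.036, beside -0.0049. Enzalutamide plus Dex 10 nM against Dex 10 nM had a mitosis median of 0.0053, beside -0.0001.

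The precision of these arrays bounds what was missed. The 95% confidence interval of a change had a median half-width of 0.17 over the 54 genes, against 0.25 over all genes. Within-group SDs had a median of 0.09 over the S-phase and 0.10 over the mitosis genes, against 0.15 over all genes. In 12 comparisons the interval lay within a 1.5-fold change either way for 49 to 53 of the 54 genes. The largest spread of group means was in FZR1, 0.69, whose probe was near background, followed by KIF11, RRM2 and GINS1.

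Beyond the 55, another list of 119 cell cycle genes had 114 tested, with calls in both directions. Against vehicle, the median change of this list was -0.0365 with DHT, -0.070 with Dex 10 nM, -0.071 with Dex 100 nM and -0.039 with enzalutamide. In enzalutamide plus Dex 100 nM against enzalutamide it was -0.023, near the -0.019 of all genes. There 71 of 114 were below 0, where 55.6% of all genes were. With Dex 100 nM against vehicle 1 rose and 4 fell (4.39%), near the 5.06% of all genes. The one that rose was GMNN, geminin, which binds CDT1 and blocks a second round of licensing, with a change of 0.63 ± 0.09 (adjusted p = 9.81e-05). GMNN also rose by 0.68 ± 0.09 in enzalutamide plus Dex 100 nM against enzalutamide (adjusted p = 4.53e-05), and by 0.40 ± 0.09 between Dex 100 nM and Dex 10 nM (adjusted p = 0.0451). Its partner CDT1 was not called in any comparison. KIF18A, a motor that lines up chromosomes, fell by 0.64 ± 0.12 with Dex 100 nM, and LIN54, the CHR-binding subunit of the DREAM complex, fell by 0.42 ± 0.12. CDCA3 fell by 0.24 ± 0.05 and SMC4, a condensin subunit, by 0.26 ± 0.07.

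With DHT against vehicle, 2 of the 114 rose and 4 fell (5.26%), near the 4.26% of all genes. ORC5, a subunit of the origin recognition complex, rose by 0.54 ± 0.06 (adjusted p = 1.07e-05), and KIF22, a chromosome-arm motor, by 0.38 ± 0.10. LIN54 fell by 0.47, KIF18A by 0.45, ANAPC1, a scaffold of the anaphase-promoting complex, by 0.38 and CDCA3 by 0.21. ORC5 fell by 0.46 ± 0.06 when enzalutamide was added to DHT (adjusted p = 0.0001), while ORC1, the subunit in the S-phase list, was not called in any comparison. In that contrast MYBL2, a transcription factor of cell cycle genes, fell by 0.97 ± 0.25 and CDC25A, a phosphatase that activates cyclin-dependent kinases, by 0.27 ± 0.06, and KIF15, a spindle motor, rose by 0.55 ± 0.11. Dex 10 nM against vehicle gave 1 call among the 114, CDCA3, which fell by 0.23, and enzalutamide against vehicle gave 0 in limma.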

How the data were processed

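The deposited files give, for each probe, a signal intensity (the mean over its beads, with no scaling between arrays) and a detection p-value against the negative control beads, per the file headers. The submitters' processing notes name GenomeStudio, with no version. A second deposited table holds normalized intensity values, for which the sources used here name no method, and it served as an alternative only.

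Background was removed by limma's nec function (version 3.58.1, R 4.3.3), a normexp fit with an offset of 16 whose negative-control parameters are inferred through detection p-values. Quantile normalization and log2 followed. Probes detected (p under 0.05) on 3 or more of 24 arrays were kept, 24607 of 47323. Of these, 17590 had 1 gene symbol, and the brightest probe represented each of 12895 genes. Symbols came from the platform annotation (30113 probes with 1, 8 with several, 17202 with none). RefSeq matched 30074 of them by Entrez identifier and changed 0. A model with 8 group means (lmFit, eBayes) used all arrays, with Benjamini-Hochberg adjustment in each of 12 comparisons and 3 differences of enzalutamide effects. The number of arrays, 3 per group, limits the precision, and replicate numbers follow accession order. Fits without 1 array, or on only the 6 arrays compared, kept the normalization and filter of all 24. The fit was tested on simulated data with each gene's probe held fixed, so the choice of probe was not part of that test.

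The genes and lists were chosen with earlier results of these data known. The naming rule took every called gene, the 2 genes with the largest change of each list per comparison, extremes and middle of each role, and up to 6 called genes per comparison of the other cell cycle list. Where FZR1 was not detected, its bound set the enzalutamide mean against the dim arrays, each raised to its lowest detected signal where the probe lay below that.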

Additional observations from a re-analysis of the deposited data

Results flagged for a closer look

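ORC5, a subunit of the origin recognition complex from the wider cell cycle list, was singled out because the effect of enzalutamide differed between DHT and vehicle cultures by a test of the difference itself. The enzalutamide effect with DHT minus that with vehicle was -0.46 ± 0.09 on the log2 scale with 3 arrays per group (limma adjusted p = 0.00594). ORC5 was the 1 gene of the 114 in that list called in this difference (0.877%), beside 1.81% of all genes. In the 54 replication and mitosis genes no such difference was called, and groups of 3 arrays were not tested for single outlying values.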

How the results depend on the processing

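No called change of the 54 genes turned its sign under any alternative run. With every probe apart, only the probe already used was followed, so another probe of a gene could not show a reversal there. For MCM7 with DHT, a probe detected on 4 arrays differed by -0.39, and the mean of its probes by only 0.0007. The counts in this paragraph are of the 54 genes, with no share of all genes beside them. They therefore do not show whether calls changed in these genes or across the whole array. With only the 6 arrays compared, which estimate each gene's spread from fewer arrays, 0 of the 54 genes were called in every comparison that had calls. DHT against vehicle gave 2 calls (MCM7 and KIF20A) under offset 50, no background correction, median scaling over the genes tested, cyclic loess, detection on all 24 arrays and the replicate block, and 0 under no detection filter, the mean of probes, every probe apart and median scaling over all probes. Dex 10 nM gave 3 under median scaling over all probes (an alternative chosen after seeing the data), which also gave 2 for Dex 100 nM, as did the mean of probes. Enzalutamide gave 0 under offset 50, no background correction, both median scalings, no filter, the mean of probes, probes apart and the replicate block. Enzalutamide plus DHT against DHT gave 0 under median scaling over all probes. Enzalutamide plus Dex 10 nM against enzalutamide gave 0 under offset 50, no background correction, detection on all 24 arrays (which removes FZR1), the mean of probes and probes apart. Enzalutamide plus Dex 100 nM against enzalutamide gave 1 (KIF2C) under median scaling over the genes tested, cyclic loess, no filter and probes apart, and 0 under median scaling over all probes. Except where stated, the cause was not tested. Without 1 array, counts ran from 0 to 1 for DHT, Dex 10 nM, enzalutamide, enzalutamide plus DHT against DHT and enzalutamide plus Dex 10 nM against enzalutamide, from 3 to 5 for Dex 100 nM, from 0 to 2 for enzalutamide plus Dex 100 nM against enzalutamide, and from 0 to 2 for the differences of enzalutamide effects. Of 12 alternatives, AURKA and ASF1A with Dex kept their calls in 11 each, KIF20A and KIF2C in 10, CDK1 and CENPA with Dex 100 nM in 9, DLGAP5 in 8, MCM7 in 7, CCNE1 and PLK1 in 6, CENPA under enzalutamide in 5, and ASF1A with enzalutamide in 3. FZR1 kept its call in 6 of 11 with Dex 10 nM and in 2 of 11 with Dex 100 nM. Median scaling over all probes moved the median of all genes by up to -0.12 (Dex 10 nM), and the mitosis median with Dex 100 nM differed from that of all genes by -0.081 to -0.055 over the alternatives.

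Run numbers in the titles were tried as a replicate block. It gave 6 calls with Dex 100 nM (TOP2A added) and 6 for enzalutamide plus Dex 100 nM against enzalutamide (CDK1 added), 2 for DHT and 0 for enzalutamide. Over all genes it gave 621 calls for DHT and 777 for Dex 100 nM, against 549 and 653 without it. Deviations of arrays of the same run correlated at -0.042 to 0.24 across genes (84 pairs, median 0.088), and those of different runs at -0.23 to 0.16 (168 pairs, median -0.029). On average 20 of 24 arrays correlated best with their own run. The labels do not say what a run shares and not every pair was above 0.1, so the numbers were not taken to pair the cultures, and a shared effect of the run is a hint from the data only. The beadchip as a block was not run, since the file headers name no chip. Depth here is signal over background: GINS1 and FZR1 lay near the detection limit.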
